A study of Sus scrofa with 8 samples.

Results

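The 10 genes FOS, FOSB, FOSL1, FOSL2, JUN, JUNB, JUND, ATF3, EGR1 and MYC encode transcription factors of the AP-1 and immediate early class. They were taken by symbol from the RefSeq annotation of the pig assembly Sscrofa11.1, and all 10 were found among the 28077 genes annotated on chromosomes 1 to 18 and X, of which 19487 are protein-coding. They were examined in pig embryonic fibroblasts (PEFs), primary cells of Large White pig fetuses at 35 days, kept for 24 h in DMEM with 15% fetal bovine serum. The cells carry no treatment and no genetic change, so there is no second condition, and the number of fetuses behind a culture is not given in the sources used here. ChIP-seq, in which DNA bound to a protein is pulled down with an antibody and sequenced, was carried out for H3K4me3, H3K27ac and the DNA-binding protein CTCF, with 2 replicates each and 1 peak list per library. Nothing in the labels says that the replicates came from separate cultures, so the spread between them may be technical. The lists were made from whole cultures, in which a mark present in few cells and a weak mark in all cells cannot be told apart.

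AP-1 is a dimer of a FOS family protein (FOS, FOSB, FOSL1, FOSL2) with a JUN family protein (JUN, JUNB, JUND), or of JUN with a related leucine zipper protein such as ATF3. It binds TGACTCA, which reads TGAGTCA on the other strand, while dimers with ATF or CREB proteins prefer TGACGTCA or TGACATCA. The pattern TGANTCA, searched here as the AP-1 site, is looser and also admits TGAATCA and TGATTCA. Immediate early genes, among them FOS, EGR1 and MYC, are transcribed within minutes after growth factors or serum reach a resting cell, without new protein synthesis. At many of them serum response factor (SRF) binds the CArG box, which is CC, then a run of A or T letters, then GG. H3K4me3 marks gene starts, H3K27ac marks active promoters and enhancers, and CTCF marks domain borders and loop anchors. A peak shows that a mark was enriched over the control and does not measure transcription.

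The lists used held 37495 and 43075 H3K4me3 peaks, 74448 and 80531 H3K27ac peaks, and 39854 and 44209 CTCF peaks in replicates 1 and 2. Read counts are not part of the lists, so depth at any 1 peak is unknown and no counting interval is given. Each peak has a fold enrichment, which is a ratio of its signal over the control. Among fibroblast markers, 12 of 12 genes found had H3K4me3 and H3K27ac peaks within 1 kb of their start in both replicates. H3K27ac in both replicates was at 0 of 6 epithelial, 0 of 4 endothelial and 0 of 3 neural marker starts, at 1 of 3 muscle markers (DES) and at 2 of 4 blood markers (CD68 and SPI1), while PTPRC and CD3E, which define white blood cells and T cells, had neither histone mark. H3K4me3 did not separate the markers in this way, since it was found in both replicates at 6 of 6 epithelial, 3 of 3 muscle and 3 of 3 neural marker starts. The part of other cells in the values of the 10 genes was not tested.

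The following sequences, read from Sscrofa11.1, show the letters that the results refer back to. Each is written 5′ to 3′ on the strand given, with matches to TGANTCA, TGACGTCA, TGACATCA or the CArG box in capitals. Matches inside annotated transcripts, and those of FOSL1 and JUNB, are shown as 30 bases. The FOS window ends 171 bases before the annotated start, which in this annotation is the start codon, since the FOS model has 0 bases of untranslated sequence.
FOS, 470 to 171 bases before the start (chr7:98449038-98449337, plus strand): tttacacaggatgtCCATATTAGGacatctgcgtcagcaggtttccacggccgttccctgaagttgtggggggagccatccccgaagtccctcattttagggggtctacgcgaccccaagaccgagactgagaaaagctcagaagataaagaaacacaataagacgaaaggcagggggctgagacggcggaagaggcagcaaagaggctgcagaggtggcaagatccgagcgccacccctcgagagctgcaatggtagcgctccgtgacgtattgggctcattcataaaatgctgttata
JUN, 900 to 601 bases before the start (chr6:153685525-153685824, plus strand): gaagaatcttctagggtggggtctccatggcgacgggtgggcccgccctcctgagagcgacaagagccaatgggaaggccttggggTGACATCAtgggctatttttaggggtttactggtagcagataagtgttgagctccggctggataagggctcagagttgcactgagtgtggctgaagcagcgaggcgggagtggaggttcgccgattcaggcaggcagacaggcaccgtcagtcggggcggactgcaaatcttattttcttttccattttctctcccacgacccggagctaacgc
JUND, 250 bases before to 49 after the start (chr2:59530741-59531040, plus strand): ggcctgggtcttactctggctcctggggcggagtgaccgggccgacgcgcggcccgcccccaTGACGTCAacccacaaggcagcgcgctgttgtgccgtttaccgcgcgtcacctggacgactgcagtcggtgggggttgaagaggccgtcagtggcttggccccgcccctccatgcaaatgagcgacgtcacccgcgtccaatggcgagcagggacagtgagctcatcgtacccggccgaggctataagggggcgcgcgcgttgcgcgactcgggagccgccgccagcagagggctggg
MYC, 250 bases before to 49 after the start (chr4:12460311-12460610, minus strand): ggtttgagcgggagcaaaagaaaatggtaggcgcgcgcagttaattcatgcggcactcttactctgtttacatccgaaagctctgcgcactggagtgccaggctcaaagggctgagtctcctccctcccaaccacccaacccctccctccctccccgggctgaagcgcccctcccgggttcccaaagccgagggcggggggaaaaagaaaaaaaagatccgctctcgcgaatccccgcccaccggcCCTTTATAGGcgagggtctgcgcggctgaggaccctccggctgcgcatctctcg
ATF3, 250 bases before to 49 after the gene's annotated 5′ end (chr9:130829629-130829928, minus strand): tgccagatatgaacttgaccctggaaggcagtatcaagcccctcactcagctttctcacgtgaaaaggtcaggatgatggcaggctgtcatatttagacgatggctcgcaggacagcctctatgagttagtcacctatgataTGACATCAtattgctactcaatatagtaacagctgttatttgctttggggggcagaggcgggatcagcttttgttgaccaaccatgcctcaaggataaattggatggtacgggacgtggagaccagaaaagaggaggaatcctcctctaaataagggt
ATF3, 250 bases before to 49 after an inner transcript start (chr9:130785534-130785833, minus strand): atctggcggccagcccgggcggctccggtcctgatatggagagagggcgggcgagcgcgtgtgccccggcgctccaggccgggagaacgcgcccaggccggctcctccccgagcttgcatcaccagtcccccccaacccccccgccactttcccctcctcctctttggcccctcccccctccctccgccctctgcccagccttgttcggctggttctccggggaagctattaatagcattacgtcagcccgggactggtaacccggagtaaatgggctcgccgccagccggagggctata
EGR1, CArG box 157 bases after the start (chr2:140440976-140441005, plus strand): cccggaaacgCCATATAAGGagcaggaagg
EGR1, CArG box 195 bases after the start (chr2:140441014-140441043, plus strand): ccggaaccacCCTTATTTGGgcagcgcctt
EGR1, CArG box 211 bases after the start (chr2:140441030-140441059, plus strand): ttgggcagcgCCTTATTTGGagcgccccga
EGR1, CArG box 479 bases after the start (chr2:140441298-140441327, plus strand): gccggtcttgCCATATTAGGgcttcctgct
EGR1, CArG box 501 bases after the start (chr2:140441320-140441349, plus strand): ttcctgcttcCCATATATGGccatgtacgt
FOSB, CArG box 666 bases after the start (chr6:51837436-51837465, plus strand): gcgccgagctCCTTATATGGctaattgcgt
FOSL1, CArG box 655 bases before the start (chr2:6429493-6429522, plus strand): aaaatatacaCCATTTTTGGagttctctgg
FOSL1, AP-1 site 195 bases after the start (chr2:6430343-6430372, plus strand): gaggagcgagTGAGTCAgaaccagagccgc
JUNB, AP-1 site 890 bases before the start (chr2:66220306-66220335, minus strand): cgtgcccagcTGAGTCAgcctgaggagaca
JUNB, AP-1 site 629 bases before the start (chr2:66220045-66220074, minus strand): gcccactggcTGACTCAccagcagccccca
JUNB, AP-1 site 732 bases after the start (chr2:66218684-66218713, minus strand): tggtcagggaTGACTCActgtgtactccta

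Within 1000 bases of the start, the CArG box was the motif found in most members. It was present on either strand in 5 of 10 members (FOS, FOSB, FOSL1, EGR1 and MYC), against 9.75% of 19486 protein-coding genes. EGR1 held 5 of them, all between the annotated start and the start codon, and the fourth of these has the same letters as the box of FOS, CCATATTAGG. The EGR1 boxes 195 and 211 bases after the start also share their letters. In MYC the box begins 4 bases before the annotated start and covers it. In the window from 250 bases before to 49 after the start, MYC was the 1 member with the box, against 1.54% of protein-coding genes. TGANTCA, the AP-1 site, was found in 3 of 10 members (FOSL1, FOSL2 and JUNB) within 1000 bases of the start, against 36.5% of protein-coding genes, and in none of the 10 in the shorter window, against 6.08%. With TGACTCA or TGAGTCA alone, the same 3 members had a match within 1000 bases, against 22.0% of protein-coding genes. TGACGTCA stood 188 bases before the start of JUND (4.10% of protein-coding genes hold it within 1000 bases). TGACATCA, which is known from the JUN promoter, stood 814 bases before the start of JUN and 108 bases before the 5′ end of ATF3 (6.39% of protein-coding genes). Distances and windows are set from the annotated starts, which may differ from the points where transcription begins. The models have 0 bases of 5′ untranslated sequence at FOS, 178 at JUN, 888 at EGR1 and 3798 at JUNB. The counts in both windows depend on these starts. A match of letters is a description and does not show that a factor was bound.

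Almost all members carried both histone marks at their starts. An H3K4me3 peak within 1 kb of the gene start was found in both replicates at 9 of 10 members, against 68.9% of protein-coding genes and 55.4% of all annotated genes. An H3K27ac peak was found in both replicates at the same 9 members, against 60.7% of protein-coding and 50.1% of all genes. Both marks together stood at 58.9% of protein-coding and 47.0% of all genes. The member without them by this rule was ATF3. A CTCF peak was found in both replicates at 3 members, JUN, EGR1 and MYC, against 17.9% of protein-coding genes, 15.2% of all genes, and 24.5% of the protein-coding genes that carry both histone marks. At JUND and FOSB a CTCF peak within 1 kb was listed in replicate 2 only. CTCF replicate 2 had more peaks than replicate 1 (44209 against 39854) and wider ones (median 776 against 676 bp). By the study's summary of its data, the CTCF replicates also differ in depth. The part of depth in the calls made in 1 replicate only was not tested.

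**Figure D1:**
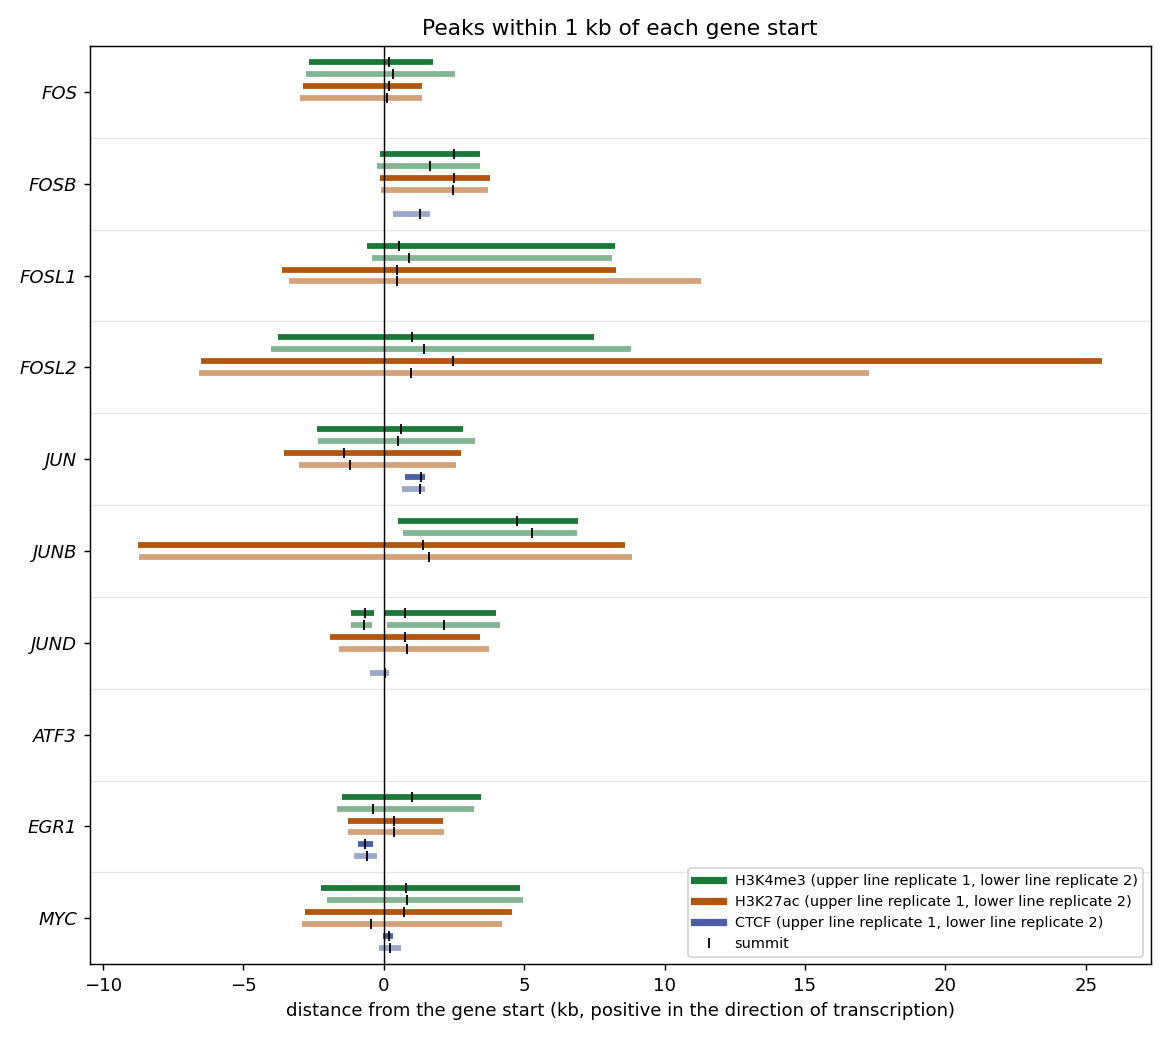
Peaks within 1 kb of each gene start in the 6 libraries, as distance from the start in kb along the direction of transcription, with 1 line per library and a tick at the summit. The H3K27ac peaks of FOSL2 and JUNB are the longest lines, ATF3 has no line, and CTCF lines appear in both replicates at JUN, EGR1 and MYC.

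Among the FOS family, FOS lies at chr7:98449508-98451971 on the plus strand. Its H3K4me3 peak ran from 2651 bp before to 1737 bp after the start in replicate 1 and from 2760 bp before to 2550 bp after it in replicate 2, with fold enrichments of 67.5 and 30.4. Its H3K27ac peak was 4247 and 4341 bp wide, with fold enrichments of 28.3 and 37.8. The CArG box shown above lies inside both peaks in both replicates. FOS and ATF3 were the members without a CTCF peak within 5 kb of the start, and the nearest edge of one was 14149 bp from the FOS start in replicate 1 and 14134 bp in replicate 2.

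FOSB (chr6:51836780-51844531, plus strand) encodes the FOS paralog with a long carboxy-terminal activation domain. Its marks lay almost wholly downstream of the annotated start: H3K4me3 began 127 and 230 bp before the start and ended 3419 and 3440 bp after it. The H3K27ac summits were 2482 and 2465 bp after the start. The H3K4me3 fold enrichments were 43.9 and 18.7, and those of H3K27ac were 27.8 and 37.4. The CTCF peak of replicate 2 (fold enrichment 13.2) began 332 bp after the start, whereas the nearest CTCF peak of replicate 1 was 1059 bp away, just outside the limit.

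FOSL1 (chr2:6430158-6436173, plus strand) encodes FRA-1, a FOS protein without the activation domain of FOS. Its H3K4me3 peak was 8835 and 8559 bp wide and its H3K27ac peak 11915 and 14652 bp wide, and both covered 100% of the gene. These peaks reached the neighbouring gene: the start of CCDC85B, 7670 bp away, lay inside all 4 of them, and the start of FIBP lay in the H3K27ac peak of replicate 2 as well. The widths at FOSL1 therefore include a second gene start.

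FOSL2 (chr3:110820403-110842903, minus strand) encodes FRA-2, and it had the widest peaks of the 10 genes. Its H3K4me3 peak was 11277 and 12803 bp wide, at percentiles 99.5 and 99.4 of the protein-coding genes with such a peak. Its H3K27ac peak was 32116 and 23884 bp wide, at percentiles 99.8 and 99.6. No other gene start lay inside these peaks or within 100 kb, and the nearest other start is that of PLB1 at 102 kb. H3K27ac covered 100% of the gene in replicate 1 and 97.1% in replicate 2. Its fold enrichments were likewise the highest among the 9 members with a peak at the start, 74.2 and 40.1 in the H3K4me3 libraries and 39.2 and 46.2 in the H3K27ac libraries.

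Among the JUN family, JUN (chr6:153686425-153687635, plus strand, a single exon) was covered whole by both marks in both replicates. H3K4me3 was 5221 and 5586 bp wide with fold enrichments of 55.4 and 26.8. H3K27ac was 6319 and 5604 bp wide with fold enrichments of 23.9 and 26.1. Its H3K27ac summits stood 1408 and 1223 bp before the start, whereas the H3K4me3 summits stood 627 and 501 bp after it. The CTCF peak 1322 and 1287 bp after the start was weak, with fold enrichments of 3.61 and 4.60, and its −log10 q-value was 2.78 in replicate 1.

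JUNB (chr2:66214086-66219435, minus strand) has a single-exon model with 3798 bases of 5′ untranslated sequence, and H3K4me3 began only 488 and 699 bp downstream of its annotated start. The H3K4me3 peak was 6426 and 6182 bp wide, with fold enrichments of 61.6 and 32.6. Its H3K27ac peak, 17356 and 17589 bp wide, was the second widest among the members but had the lowest H3K27ac fold enrichments at a start, 15.3 and 22.9. The start of HOOK2, 8127 bp away, lay inside the H3K27ac peak in both replicates.

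JUND (chr2:59530991-59532846, plus strand) encodes the JUN protein that is present in resting cells. It had a pair of H3K4me3 peaks around its start in each replicate, a small one that ended 347 and 409 bp before the start and a large one of 3987 and 4019 bp that began 2 bp before the start in replicate 1 and 106 bp after it in replicate 2. Fold enrichments were 13.7 and 8.02 for the small peak and 66.4 and 29.1 for the large one. A single H3K27ac peak of 5345 bp in each replicate bridged the gap. TGACGTCA, 188 bases before the start, lies in the gap between the H3K4me3 peaks and inside the H3K27ac peak. The CTCF peak of replicate 2 there had a fold enrichment of 2.89.

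EGR1 (chr2:140440829-140445302, plus strand) encodes a zinc finger factor. It had H3K4me3 peaks of 4925 and 4892 bp and the narrowest H3K27ac peaks among the 9 marked starts, 3406 and 3410 bp. The H3K27ac summits stood 361 and 351 bp after the annotated start, between the CArG boxes at 211 and 479 bases. The H3K4me3 fold enrichment was 60.1 in replicate 1, at percentile 67.4, and 19.3 in replicate 2, at percentile 27.5, so its rank differed widely between the replicates. A CTCF peak stood 660 and 613 bp before the start, with fold enrichments of 7.98 and 13.7.

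MYC (chr4:12455141-12460360, minus strand) encodes a basic helix-loop-helix factor that drives growth and division. Its H3K4me3 peak was wide, 7097 and 6982 bp, but low, with fold enrichments of 34.8 and 20.7 at percentiles 22.5 and 32.2. H3K27ac was 7386 and 7122 bp wide with fold enrichments of 19.9 and 32.1. MYC was the only member whose start lay inside a CTCF peak in both replicates; the summits were 198 and 207 bp after the start, with fold enrichments of 5.93 and 12.1. The CArG box at its start lies inside this CTCF peak. The nearest other protein-coding gene start, FAM84B, is 985 kb away.

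ATF3 (chr9:130772259-130829678, minus strand), a stress-induced factor, is annotated with 4 transcript starts. At its 5′ end no library had a peak within 1 kb, but the nearest H3K4me3 peaks were 1040 and 1105 bp away and the nearest H3K27ac peaks 1057 and 1043 bp away, just outside the limit. Measured from the start of the next transcript, 203 bp inside the gene, these peaks counted, with H3K4me3 fold enrichments of 30.0 and 22.4 and H3K27ac fold enrichments of 15.0 and 10.7. The strongest marks lay at the inner starts, 44095 and 44172 bp inside the gene. There H3K4me3 was 5428 and 6023 bp wide with fold enrichments of 62.3 and 23.7, H3K27ac was 4982 and 5305 bp wide with fold enrichments of 40.6 and 46.3, and a CTCF peak had fold enrichments of 4.91 and 5.21. The sequence around the inner start, shown above, holds no exact match to the motifs searched, and near matches were not searched. With the start of any annotated transcript in use, all 10 members carried both histone marks and 4 carried CTCF in both replicates.

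The members' H3K4me3 peaks were wide rather than high. Over the 9 members with a peak at the start, the median width was 5221 bp in replicate 1 and 5586 bp in replicate 2, against 2741 and 2903 bp over the protein-coding genes with such a peak. The median H3K4me3 fold enrichment was 60.1 and 26.8, against 52.0 and 25.2. For H3K27ac the median width was 6319 and 5604 bp against 2442 and 2425 bp, and the median fold enrichment 27.8 and 35.3 against 16.4 and 19.2. The percentile of the H3K4me3 fold enrichment ran from 22.5 (MYC) to 91.4 (FOSL2) in replicate 1 and from 25.9 (FOSB) to 95.2 (FOSL2) in replicate 2.

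When peaks were summed over 5 kb on either side of the start, which does not depend on how a domain is cut into peaks, the order of H3K4me3 coverage was FOSL2, MYC, FOSL1, JUNB, JUND, JUN, EGR1, FOS, FOSB and ATF3. FOSL2 had 8893 ± 161 bp (SD, n = 2) and ATF3 2259 ± 61.5 bp. Of the neighbours in this order, JUND (5459 ± 141 bp) and JUN (5404 ± 258 bp) overlapped in their replicates, as did EGR1 (4909 ± 23.3 bp) and FOS (4850 ± 652 bp), and the other neighbours did not. FOS had the largest spread, with 4389 and 5311 bp. For H3K27ac, FOSL2 and JUNB were covered over the whole window of 10001 bp in both replicates. They were followed by FOSL1 (8501 ± 193 bp), MYC (8130 ± 484 bp) and JUND (8002 ± 197 bp), which overlapped from neighbour to neighbour. EGR1 stood last with 3408 ± 2.83 bp. Over protein-coding genes, with or without a peak, the median was 2307 and 2457 bp in the H3K4me3 libraries and 1708 and 1743 bp in the H3K27ac libraries. Over those with both histone marks at the start it was 3145 and 3347 bp for H3K4me3, and 2893 and 2932 bp for H3K27ac.

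**Figure D2:**
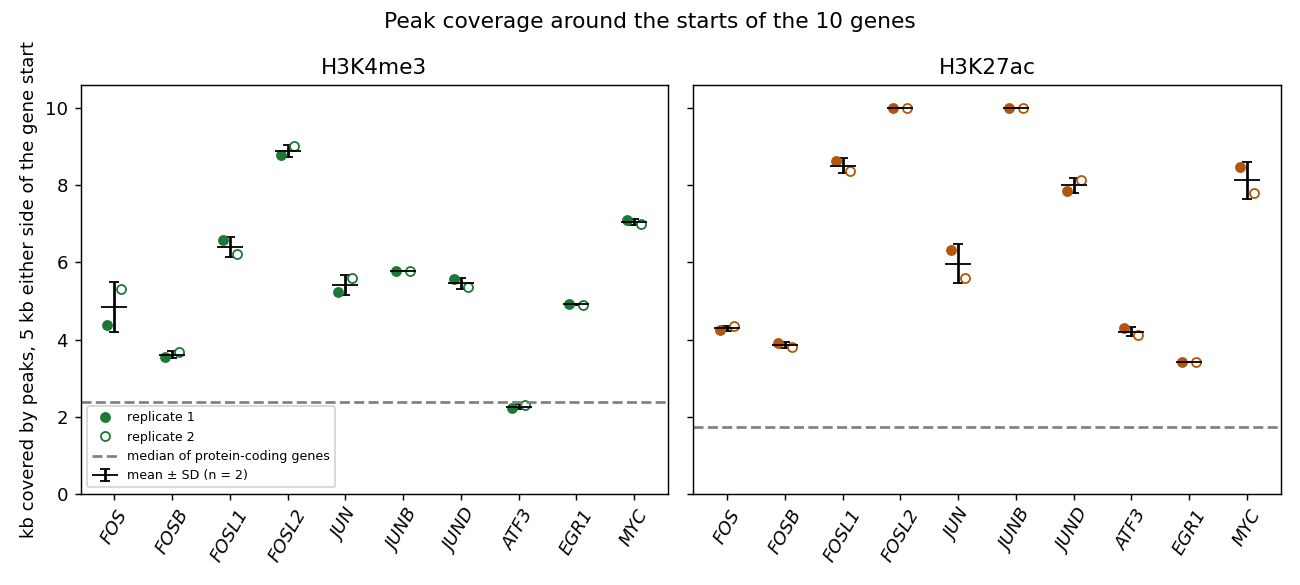
Base pairs covered by H3K4me3 peaks (left) and H3K27ac peaks (right) within 5 kb on either side of each gene start, in kb, with a point per replicate, the mean and SD (n = 2), and the mean over the replicates of the protein-coding median as a dashed line. FOSL2 and JUNB fill the H3K27ac window, and ATF3, at 2259 bp, is the member below the line for H3K4me3. The dashed line takes in protein-coding genes with and without a peak.

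The members are mostly short genes, and the marks covered much of their length. H3K4me3 covered a median of 84.0% and 90.6% of the gene body, against 4.84% and 5.46% over protein-coding genes, and H3K27ac covered 93.7% and 89.0% against 5.75% and 6.13%. The protein-coding values take in genes of all lengths, with or without a peak, and are not matched to the members. FOSL1 and JUN were covered over 100% by both marks in both replicates. FOSL2 had 33.3% and 42.8% of its body under H3K4me3, and EGR1 had 47.5% and 47.9% under H3K27ac. The least covered was ATF3, the longest member at 57420 bp, with 13.4% and 16.2% of its body under H3K4me3 and 17.3% and 17.2% under H3K27ac.

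Beyond the starts, H3K27ac peaks were counted as distal where the summit lay within 100 kb of a member's start and more than 1 kb from every annotated gene start. The median over the 10 members was 15 in replicate 1 and 16 in replicate 2, against 6 and 7 over protein-coding genes and 7 and 8 over those with both marks at the start. ATF3 had 22 and 24 such peaks, JUND 20 and 23, and JUNB, with 17 other gene starts within 100 kb, had 4 and 6. FOS had 10 and 15, the widest gap between replicates among the members. H3K27ac peaks of all kinds covered 76.1 and 78.3 kb of the 100 kb on either side of the FOSL2 start, at percentiles 98.9 and 98.8 of protein-coding genes. The other members had between 29.8 kb (EGR1, replicate 1) and 58.1 kb (JUND, replicate 2), against medians of 14.6 and 14.9 kb over protein-coding genes. Over those with both marks at the start, the medians were 19.8 and 20.8 kb. The summits of the wide peaks at FOSB, FOSL2, JUN and JUNB stood over 1 kb from the start and were counted as distal in at least 1 replicate. With distal peaks limited to those with no part within 1 kb of a gene start, the medians were 13.5 and 15.5, against 5 and 6.

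In all, 122 distal H3K27ac regions were found in both replicates, with at least 1 bp of overlap. Of these, 4 were the wide peaks over the members' own starts, and 118 lay elsewhere, 57 upstream and 61 downstream. By annotation at the summit, 61 of the 118 were intergenic and 3 lay within ATF3 itself. H3K4me3 peaks of both replicates overlapped 51 of them and CTCF peaks of both replicates overlapped 31. No shares over all distal H3K27ac regions stand beside these counts, which describe the loci alone. Another 9 of the 118 reached within 1 kb of some other gene start, which leaves 109 away from the 5′ end of every annotated gene. These still include the peaks over or beside the inner transcript starts of ATF3.

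Regions were ranked by the mean fold enrichment of the replicates, and the order of the leading pair was reversed in 1 of the replicates at FOS, FOSL2, EGR1 and MYC. At FOSB it was reversed only for the leading pair away from gene 5′ ends. At FOS, the leading distal region (chr7:98428755-98432118) had its summit 19.5 kb upstream, with fold enrichments of 40.7 and 26.6, and the next (chr7:98472366-98476266) stood 25.2 kb downstream with 27.9 and 30.0. Both are intergenic. At FOSL2, the leading regions were a 7089-bp stretch 38.5 kb upstream (chr3:110875293-110882381, fold enrichments of 30.1 and 30.8) and a 13830-bp stretch 53.6 kb downstream (chr3:110783155-110796984, 28.3 and 32.0), both intergenic. The one downstream of FOSL2 overlapped H3K4me3 peaks and CTCF peaks of both replicates, and the one upstream had neither in both replicates. At JUND, the leading region lay 7.43 kb upstream (chr2:59522016-59528413, fold enrichments of 23.6 and 33.6) and overlapped H3K4me3 peaks of both replicates. At ATF3 the strongest was the peak at the inner starts described above, followed by an intergenic region 91.3 kb downstream of the 5′ end (chr9:130737637-130742004, 23.8 and 26.9). H3K4me3 peaks of both replicates overlapped both of these ATF3 regions.

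Some of the strongest regions near members were promoter peaks of other genes. Near FOSL1, the region of highest fold enrichment (44.5 and 58.7) had its summit in an exon of MUS81 and reached within 1 kb of a gene start, and the next had only 12.8 and 13.2 (chr2:6507273-6509214, 78.2 kb downstream). Near FOSB, the leading region 13.8 kb downstream (32.4 and 37.6) likewise lay within 1 kb of another start, a pseudogene, and the strongest free of starts was 18.2 kb upstream (chr6:51817503-51823144, 14.3 and 19.7). Near JUN, the region 70.0 kb downstream (29.1 and 32.2) lay in MYSM1 by its start. The strongest JUN regions free of starts were 60.5 and 51.1 kb downstream in intergenic sequence, with mean fold enrichments of 17.7 and 16.1. Near JUNB, the leading region did not reach within 1 kb of a gene 5′ end and lay in an exon of TNPO2, 52.7 kb upstream (19.5 and 28.9). H3K4me3 peaks of both replicates overlapped it. They also overlapped the FOSL1 region at 78.2 kb, the FOSB region at 18.2 kb and the JUN region at 51.1 kb, but not the JUN region at 60.5 kb. Distal regions were set by gene 5′ ends only, so inner transcript starts of other genes may lie in them. These regions were named after their values had been seen where they are not the leading pair.

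EGR1 and MYC had the lowest fold enrichments at their leading distal regions, although their starts were marked. The highest mean H3K27ac fold enrichment of a region away from gene 5′ ends was 7.72 near EGR1 and 9.50 near MYC, and higher near each of the other 8 members, from the FOSL1 region with 12.8 and 13.2 in the replicates up to a mean of 33.7 at FOS, the peak over the inner ATF3 starts left aside. The next FOSL1 region, with a mean of 9.63, was level with those near MYC. The number of distal peaks near MYC (15 and 19) and its H3K27ac coverage within 100 kb (41.1 and 43.9 kb) were not low among the members. Around MYC, 10 of 12 regions were downstream, and all of those but the nearest, at 46.0 kb, lay in the long noncoding RNA gene LOC106509952. Around EGR1, 7 of 9 were downstream, and the leading one by the mean lay in the long noncoding RNA gene LOC106509575 (26.6 kb, 6.17 and 9.27), although in replicate 1 the region 48.1 kb downstream was higher (7.42 and 4.29).

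**Figure D3:**
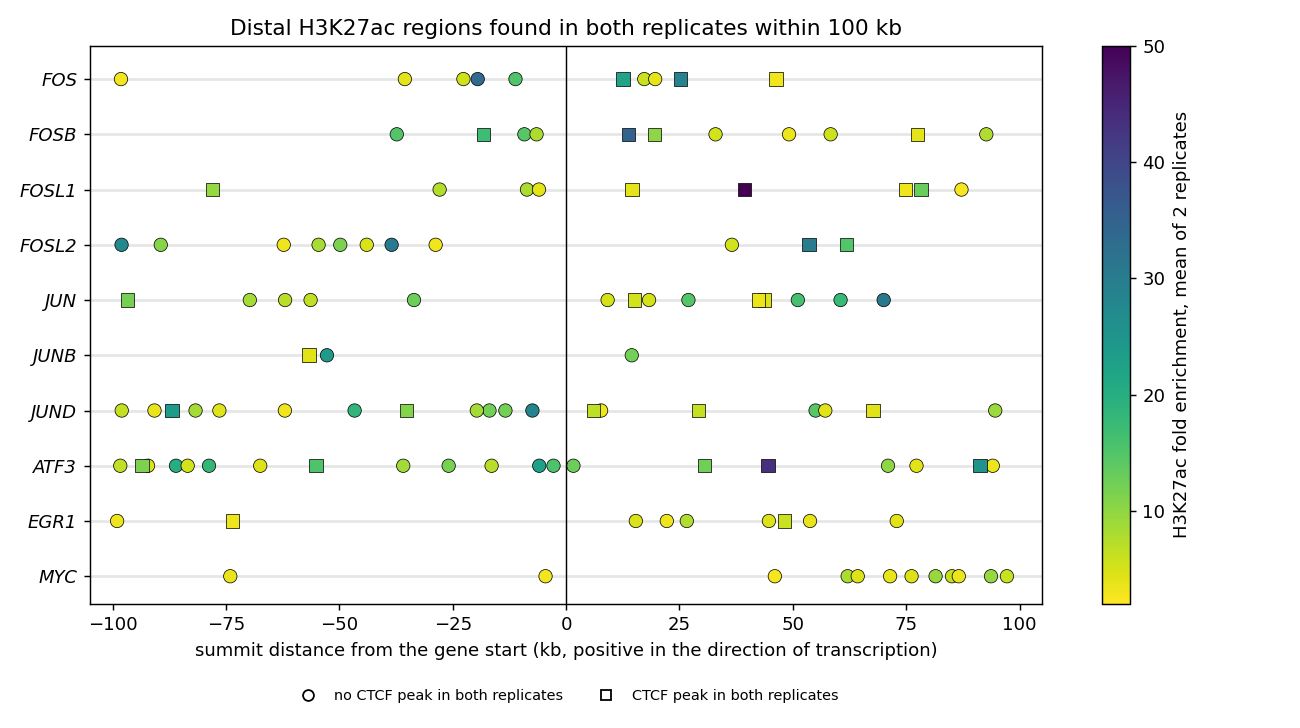
Distal H3K27ac regions found in both replicates within 100 kb of each gene start, the 4 over the members' own starts left out, placed by summit distance in kb along the direction of transcription and coloured by the mean fold enrichment of 2 replicates. Squares overlap CTCF peaks of both replicates and circles do not, and the points of EGR1 and MYC all have mean fold enrichments under 10.

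Distal regions near the members did not hold AP-1 sites more often than distal regions elsewhere. TGANTCA was found within 150 bp of the summit in 12 of 141 distal peaks near members in replicate 1 (8.51%) and in 15 of 160 in replicate 2 (9.38%), against 12.8% and 12.6% of all distal H3K27ac peaks. The CArG box was found in 2 of 141 and 1 of 160, against 1.96% and 1.87%, and TGACGTCA in none of them, against 0.174% and 0.194%. Peaks near the same gene are not independent, and no test was made. In 3 of the 118 regions TGANTCA was found within 150 bp of the summit in both replicates, with no share over all distal regions beside this count. They lay 51.1 kb downstream of JUN, 2.78 kb upstream of the ATF3 5′ end and 93.7 kb downstream of MYC, and the ATF3 region also reached within 1 kb of the start of the long noncoding RNA gene LOC102164427. Their 300 bases around the summit are given on the plus strand with the site in capitals. The JUN match, TGATTCA, is neither TGACTCA nor TGAGTCA, and the JUN and ATF3 matches lie near the ends of the printed windows.
JUN, distal region (chr6:153737368-153737667, plus strand): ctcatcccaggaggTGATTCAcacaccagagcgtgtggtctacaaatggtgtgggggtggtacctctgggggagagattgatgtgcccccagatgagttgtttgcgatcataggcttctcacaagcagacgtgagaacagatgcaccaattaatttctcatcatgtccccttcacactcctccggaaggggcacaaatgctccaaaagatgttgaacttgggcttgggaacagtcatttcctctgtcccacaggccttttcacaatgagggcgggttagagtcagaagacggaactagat
ATF3, distal region (chr9:130832307-130832606, plus strand): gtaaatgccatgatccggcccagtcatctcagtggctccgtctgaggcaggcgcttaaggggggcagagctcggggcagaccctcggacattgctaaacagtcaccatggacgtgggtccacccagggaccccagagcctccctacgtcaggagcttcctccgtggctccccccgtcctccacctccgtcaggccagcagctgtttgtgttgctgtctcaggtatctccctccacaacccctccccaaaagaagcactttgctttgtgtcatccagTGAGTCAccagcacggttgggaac
MYC, distal region (chr4:12366534-12366833, plus strand): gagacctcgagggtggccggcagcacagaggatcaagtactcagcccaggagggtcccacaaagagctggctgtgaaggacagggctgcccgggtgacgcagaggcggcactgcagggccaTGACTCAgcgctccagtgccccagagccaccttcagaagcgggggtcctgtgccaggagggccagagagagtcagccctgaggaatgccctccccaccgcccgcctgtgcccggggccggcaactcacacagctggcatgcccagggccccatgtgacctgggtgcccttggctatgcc
The JUN region (chr6:153736253-153740485) had fold enrichments of 15.4 and 16.8, the ATF3 region 14.6 and 16.7, and the MYC region (chr4:12365309-12369711), the leading one near MYC by the mean but not in replicate 1, 7.29 and 11.7.

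The spacing of CTCF peaks differed widely between the loci. The interval from a member's start to the nearest CTCF summit on each side, with peaks shared by both replicates, spanned 2.21 kb at MYC, 3.30 kb at JUN, 6.72 kb at FOSL2, 11.6 kb at JUNB, 15.8 kb at FOSL1, 19.9 kb at FOSB, 29.9 kb at EGR1, 33.7 kb at JUND, 84.6 kb at ATF3 and 123 kb at FOS. Some of these rest on 1 library or on weak peaks: the EGR1 interval was 5.85 kb without replicate 1 and with the peaks of either replicate, and the JUN interval was 15.4 kb at a −log10 q-value of at least 5. At FOS, the interval reached 108 kb upstream and 14.7 kb downstream, held 7 and 12 distal H3K27ac peaks, and was bounded downstream by a CTCF peak with fold enrichments of 27.8 and 40.1. At JUN, the upstream border, 1.98 kb away, had fold enrichments of 17.5 and 34.4, against medians of 19.7 and 19.2 over all CTCF peaks. The downstream border was the weak peak named above. At MYC, the peak at the start itself formed 1 border, and the other stood 2.02 kb upstream with fold enrichments of 14.5 and 27.6. No distal H3K27ac peak lay inside the MYC interval, but the interval lies within the H3K27ac peak at the MYC start. A distal summit could lie only in its upstream part, from 1 kb to 2.02 kb before that start. The count there therefore says little about the locus. The fold enrichments of CTCF at the members' starts, 3.61 to 7.98 in replicate 1, were below the median of 17.2 over the protein-coding genes with a CTCF peak at the start.

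Most related genes were marked at their starts as well. Over protein-coding genes, the share with a peak at the start in both replicates was 68.9% for H3K4me3, 60.7% for H3K27ac and 17.9% for CTCF. Of 18 other AP-1 and related leucine zipper genes, 18 had H3K4me3 and 17 had H3K27ac at the start in both replicates, and 2 had CTCF. The one without H3K27ac was BATF, an AP-1 factor of lymphocytes. Of 28 other immediate early genes, 27 had H3K4me3, 25 had H3K27ac and 8 had CTCF. NPAS4, an early gene of neurons, had neither histone mark, and EGR4 and ARC, also best known from neurons, had H3K4me3 but not H3K27ac. DUSP1, a phosphatase that ends MAP kinase signals, and ZFP36, which promotes decay of early mRNAs, filled the 10001-bp H3K27ac window in both replicates as FOSL2 and JUNB did. Over this list the median number of distal H3K27ac peaks was 13 and 14, beside 15 and 16 for the members and 15.5 and 16 for the fibroblast markers. Within 5 kb of the start, its median H3K4me3 coverage was 5557 and 5779 bp, beside 5390 and 5473 bp for the members. Its median H3K27ac coverage was 6873 and 6612 bp, beside 7091 and 6696 bp, so wide marks were not particular to the members. The fibroblast markers were also covered more widely than the members within 5 kb of the start, with medians of 6841 and 6630 bp of H3K4me3 against 5390 and 5473 bp, and 8138 and 8375 bp of H3K27ac against 7091 and 6696 bp.

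Of 15 factors upstream of the members, 13 had H3K4me3 (86.7%), 14 had H3K27ac (93.3%) and 3 had CTCF (20.0%). Over protein-coding genes these shares were 68.9%, 60.7% and 17.9%. SRF itself carried all 3. MRTFB, an SRF coactivator listed as MKL2, had no histone peak at its annotated 5′ end, and MRTFA, listed as MKL1, had H3K27ac alone. Of 13 known AP-1 targets found, 11 had H3K4me3 (84.6%), 10 had H3K27ac (76.9%) and 3 had CTCF (23.1%). The CTCF shares of both lists lay near the 17.9% of protein-coding genes and the 24.5% of those with both histone marks. The matrix metalloproteinase genes MMP3 and MMP13 had neither histone mark in both replicates, SPP1 had H3K4me3 and CTCF, and MMP1 had both histone marks. PLAU, the urokinase gene, filled the H3K27ac window in both replicates, and CD44 had 32.5 distal H3K27ac peaks as a mean of the replicates. VIM stands on this list and among the fibroblast markers.

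**Figure D4:**
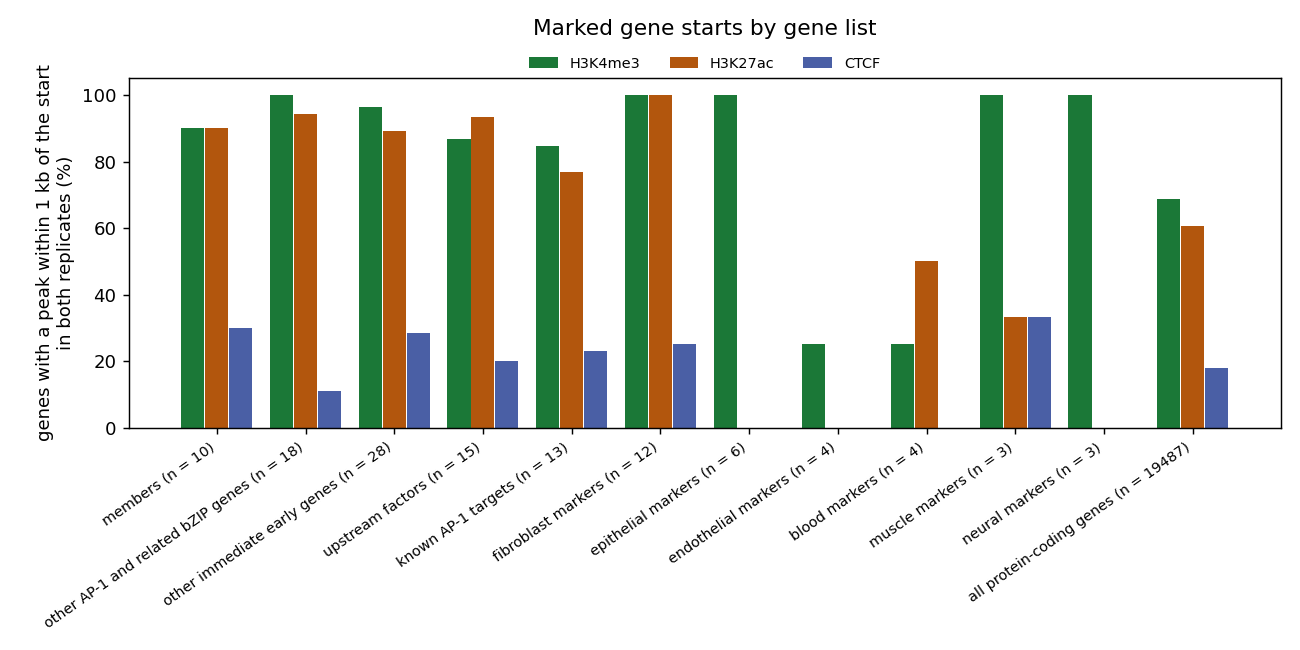
Percent of genes with a peak within 1 kb of the start in both replicates for H3K4me3, H3K27ac and CTCF, in the 10 genes (members), in each list of related genes or markers, and in all protein-coding genes, with the number of genes found beside each name. Bars of H3K27ac are at 90.0% for the 10 genes, 100% for fibroblast markers and 0 for epithelial, endothelial and neural markers.

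The protein-coding gene most like each member was found by the mean absolute difference in base pairs covered within 5 kb of the start over the 6 libraries. It was LOC106507543 for FOS (59.7 bp), MYOM1 for ATF3 (76.2 bp), UBA1 for EGR1 (112 bp), SPSB1 for FOSB (121 bp), BBC3 for FOSL1 (184 bp), COL6A3 for JUND (196 bp), SBNO2 for JUNB (206 bp), AHR for JUN (258 bp), ADM for MYC (287 bp) and RARA for FOSL2 (306 bp). FOSL2 and JUNB were at the upper bound of this measure for H3K27ac, which the window sets.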

How the data were processed

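ChIP-seq was performed by the authors on PEFs with antibodies to H3K4me3 (ab8580), H3K27ac (ab4729) and CTCF (A1133). Per the labels and methods, reads were aligned with Bowtie2, both ends of a fragment had to map uniquely, duplicates were removed with Picard, and MACS2 called narrow peaks separately in each library on Sscrofa11.1; tool versions are not given in the sources used here. The deposited peak lists give an integer score, a fold enrichment (ratio over the control), a −log10 p-value and a −log10 q-value per peak. The methods state a q-value of 0.01, but the highest q-value in the lists was 0.0432 to 0.0499; all peaks were kept. The 2 input samples were not analysed here.

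Peaks on chromosomes 1 to 18 and X were used, and 435 to 633 per library elsewhere were left out. All peak ends fitted the chromosome lengths of the assembly. Gene starts were the 5′ ends of RefSeq genes. A peak counted at a start where any part of it lay within 1 kb. Percentiles are among protein-coding genes. Python 3.11.15, pandas 2.3.3, numpy 2.4.6 and pysam 0.24.0 were used; the overlap and coverage functions were tested on simulated data. The design holds 1 condition, so no test between groups was made. Motifs were searched on both strands; TGANTCA overlaps neither TGACGTCA nor TGACATCA in its letters. All 10 genes, the leading pair of distal regions per gene and the gene lists were named by rule, but the members and lists were chosen with earlier results of these data known, and printed windows were placed after the matches were seen. HMOX1, COL6A1 and TUBB3 were not matched in the annotation, and some single items are not reported here. As alternatives, a stricter limit on the −log10 q-value (5 or more), other distances, any transcript start, overlap limits, motif windows and leaving out each replicate were tried.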

Additional observations from a re-analysis of the deposited data

How the results depend on the processing

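The numbers of members with H3K4me3 and with H3K27ac at the start (9 of 10 each) were 9 or 10 under every alternative tried, and 10 within 5 kb or from any transcript start, where ATF3 is added. The number with CTCF in both replicates (3) was 8 within 5 kb and 4 from any transcript start; at a −log10 q-value of at least 5 it was 2, without JUN. Leaving out each replicate in turn gave 3 and 5, and the members added without replicate 1 were FOSB and JUND. The median number of distal H3K27ac peaks (15.5 as the mean of both replicates, 6.5 over protein-coding genes) was 10.5 at a −log10 q-value of at least 5 (4 over protein-coding genes), 8.5 within 50 kb (3), 13.25 with summits over 5 kb from every start (4.5), 13 with peaks shared by at least 1 bp (5), 10 with peaks shared by at least 50% of both (4) and 14.5 with distal set by the peak's interval (5.5), an alternative chosen after seeing the data. The share of distal peaks near members with an AP-1 site (8.94%, against 12.7% of all) was 7.47% at the stricter q-value (12.5%), 39.2% within 500 bp of the summit (47.1%), 6.0% with TGACTCA or TGAGTCA alone (7.61%) and 10.4% over 5 kb from every start (13.1%), and stayed below the share of all distal peaks in each of these. The median H3K4me3 width (5404 bp) ran from 5221 to 5586 bp without a replicate. The median CTCF interval (17.9 kb) was 13.6 kb with the peaks of either replicate; without a replicate, an alternative also added after seeing the data, it ran from 13.6 to 17.9 kb. Single intervals moved more: EGR1 (29.9 kb) was 5.85 kb with the peaks of either replicate and without replicate 1, FOSL2 (6.72 kb) was 4.73 kb in these, and at the stricter q-value JUN (3.30 kb) was 15.4 kb and ATF3 (84.6 kb) 106 kb. No paired analysis was possible because no result comes from a test between groups, although the labels number the replicates of each mark alike. With 2 replicates and no read counts, differences between members smaller than the replicate spread cannot be resolved. The cause of these differences between settings was not tested.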
